A study of Mus musculus with 48 samples.

Results

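The Ms4a family encodes small proteins that span the cell membrane several times, and 5 of its genes are described here: Ms4a4c, Ms4a6b, Ms4a6c, Ms4a6d and Ms4a7. They were taken by name from a table of 24538 gene rows, in which 10 other rows also carry an Ms4a symbol. The counts came from 3′ sequencing of poly(A) RNA in immune cells sorted from mouse colon tumours. Tumours had been induced with azoxymethane (AOM), a carcinogen, and dextran sulfate sodium (DSS), which injures the colon lining, and every sample is labelled day 85.

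The samples carry the genotype label ko or ctrl, where ko stands for loss of Ccl17, a chemokine gene, and the genotype of the ctrl mice is not described further. The cells fall into 4 sorted populations named for Ly6C, a surface protein that is high on newly arrived monocytes, and for MHC class II, the molecule that shows antigen to helper T cells. Ly6Clo MHCIIhi had 8 replicates labelled ko and 8 labelled ctrl. Ly6Clo MHCIIlo had 4 and 4, Ly6Chi MHCIIhi had 4 and 3, and Ly6Chi MHCIIlo had 4 and 4. AOM and DSS treatment was shared by all of these groups, and housing, which the study varied, is not labelled per sample. Nothing in the labels says that replicates were separate animals, so every p-value measures the spread between these samples only.

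The founding members of the family are Ms4a1, which encodes the B cell protein CD20, and Ms4a2, which encodes a chain of the IgE receptor of mast cells. Several other members are found in myeloid cells, where MS4A proteins sit beside receptors at the membrane and alter their signalling. Ms4a7 is widely used as a marker of tissue macrophages in mice, while Ms4a4c, Ms4a6b, Ms4a6c and Ms4a6d belong to branches of the family that have expanded in rodents. In mice MS4A6D has been described as a partner of VSIG4 in holding back the NLRP3 inflammasome, and MS4A4B as a partner of GITR, the product of Tnfrsf18, on T cells.

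All 5 genes lie in the Ms4a cluster of chromosome 19, which holds 19 annotated Ms4a genes over 678.6 kb in GENCODE M21 (build GRCm38). Ms4a7 is at chr19:11321039-11336146 on the minus strand, Ms4a4c at chr19:11404770-11427246 on the plus strand, Ms4a6c at chr19:11469366-11482192 on the plus strand, Ms4a6b at chr19:11516512-11531256 on the plus strand, and Ms4a6d at chr19:11586604-11604849 on the minus strand. The counts are of 3′ ends, so the likeness of those ends limits how far neighbours can be told apart. Within the last 400 bases of their annotated transcripts, Ms4a4c and Ms4a4b share an identical run of up to 120 bases, and Ms4a6b and Ms4a6c one of up to 57 bases. Every other pair compared, of members with each other or with Ms4a4a, Ms4a4b or Ms4a4d, shares at most 18 bases. The remaining Ms4a genes were not compared with the members. The sources used here do not say how reads that match both genes were assigned, so Ms4a4c, Ms4a6b and Ms4a6c are uncertain to that extent.

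The promoters of 4 members are shown because these neighbours had different patterns across the populations. RefSeq (GRCm38.p6) lists the windows from 250 bases before to 50 after each start, which are chr19:11336097-11336396 (minus strand) for the outer of 2 starts of Ms4a7, chr19:11407411-11407710 (plus strand) for Ms4a4c, chr19:11469118-11469417 (plus strand) for Ms4a6c and chr19:11518309-11518608 (plus strand) for Ms4a6b. Ms4a6d is named only. Capitals mark GAGGAA and GGAAGT on either strand, which are parts of the sites that ETS factors such as the myeloid regulator PU.1 prefer and which can overlap each other.
Ms4a7: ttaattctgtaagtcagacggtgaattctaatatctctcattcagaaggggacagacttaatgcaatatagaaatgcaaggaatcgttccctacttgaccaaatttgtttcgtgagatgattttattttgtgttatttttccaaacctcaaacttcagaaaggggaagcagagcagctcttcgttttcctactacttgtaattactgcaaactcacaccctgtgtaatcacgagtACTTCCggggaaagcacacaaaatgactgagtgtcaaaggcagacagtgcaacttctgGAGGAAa
Ms4a4c: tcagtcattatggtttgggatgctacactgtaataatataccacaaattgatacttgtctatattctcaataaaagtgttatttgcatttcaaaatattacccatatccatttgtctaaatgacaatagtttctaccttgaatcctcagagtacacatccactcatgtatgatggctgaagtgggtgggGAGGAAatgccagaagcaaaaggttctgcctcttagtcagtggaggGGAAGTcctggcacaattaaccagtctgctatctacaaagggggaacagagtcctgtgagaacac
Ms4a6c: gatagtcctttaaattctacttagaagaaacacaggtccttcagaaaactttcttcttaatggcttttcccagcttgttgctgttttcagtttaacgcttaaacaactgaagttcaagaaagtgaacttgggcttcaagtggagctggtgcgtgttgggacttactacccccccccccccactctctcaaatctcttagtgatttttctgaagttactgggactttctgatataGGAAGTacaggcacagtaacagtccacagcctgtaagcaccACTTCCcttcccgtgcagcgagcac
Ms4a6b: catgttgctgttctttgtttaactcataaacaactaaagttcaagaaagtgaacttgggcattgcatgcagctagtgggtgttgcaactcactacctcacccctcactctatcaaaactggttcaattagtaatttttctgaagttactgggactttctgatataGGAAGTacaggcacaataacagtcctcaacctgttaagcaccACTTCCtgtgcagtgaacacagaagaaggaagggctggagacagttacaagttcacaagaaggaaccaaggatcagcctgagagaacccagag
Ms4a7 (outer start) and Ms4a4c held 1 match of each motif, and Ms4a6c and Ms4a6b held 2 matches of GGAAGT and 0 of GAGGAA. Among all 32851 promoter windows, 28.3% held GAGGAA and 23.8% held GGAAGT, so the matches are a description and not sites. The windows of Ms4a6c and Ms4a6b share a run of 48 bases, from position 202 in Ms4a6c and position 133 in Ms4a6b, counted from the 5′ end of each window.
Shared run: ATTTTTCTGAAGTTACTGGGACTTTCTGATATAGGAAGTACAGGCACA
No other pair of members shared more than 9 bases there.

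The 48 libraries held at most 500687 counts each. In Ly6Clo MHCIIhi, 4 replicates of each genotype had a second library, which was added to the first. Of all libraries, replicate 2 of the ctrl group of Ly6Chi MHCIIhi, with 8409 counts, fell under the minimum of 28006, which left 39 samples. The gate markers followed the labels: Ly6c2, which encodes a Ly6C protein, averaged 25.6 and 43.2 CPM in Ly6Clo MHCIIhi and Ly6Clo MHCIIlo against 528 and 1210 CPM in Ly6Chi MHCIIhi and Ly6Chi MHCIIlo. Cd74, the invariant chain of MHC class II, averaged 13361 and 9761 CPM in Ly6Clo MHCIIhi and Ly6Chi MHCIIhi against 2583 and 1843 CPM in their MHCIIlo counterparts. Ptprc, which encodes the leukocyte protein CD45, was above 0 in all samples. Ccl17 had 15 counts over the 8 Ly6Clo MHCIIhi samples labelled ko (0 to 6 each), against 510 over the 8 labelled ctrl (0 to 269 each), and at most 14 counts in any group of the other populations. The labels do not say which part of Ccl17 is deleted.

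The Ly6Chi MHCIIhi library labelled ctrl replicate 1 stood apart. Of its 78265 counts, 23% fell on 5 red cell genes and 5.96% on 10 neutrophil genes, against at most 0.156% and 0.188% in the other 6 libraries of that population. It also held 10 of the 17 counts of Ms4a1. Ly6Chi MHCIIhi ctrl replicate 3 was the smallest library used, with 34362 counts. Differences of the 5 members that rest on Ly6Chi MHCIIhi are therefore given with and without ctrl replicate 1. Other results that rest on this population include that library unless stated. Among them are the background shares, the list counts, the interaction and the differences of genes outside the 5. Levels below are CPM on library sizes scaled by the trimmed mean of M values (TMM), with the SD over replicates. Differences are on the log2 scale, with standard errors (SE) worked back from the test statistic. In these sorted bulk samples, fewer cells that express a gene and less RNA per cell cannot be told apart.

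Ms4a7 was a gene of the Ly6Clo populations. Its level averaged 652 ± 207 CPM in Ly6Clo MHCIIhi (SD, n = 16), 565 ± 143 CPM in Ly6Clo MHCIIlo (SD, n = 8), 120 ± 51.1 CPM in Ly6Chi MHCIIhi (SD, n = 7) and 46.7 ± 28.5 CPM in Ly6Chi MHCIIlo (SD, n = 8). The lowest, median and highest replicates had 286, 594 and 1021 CPM in Ly6Clo MHCIIhi and 356, 599 and 719 CPM in Ly6Clo MHCIIlo. They had 40.0, 127 and 200 CPM in Ly6Chi MHCIIhi and 10.3, 45.4 and 91.6 CPM in Ly6Chi MHCIIlo. Every Ly6Clo sample was thus above every Ly6Chi sample, while the levels overlapped within each Ly6C level. The share of all genes that lay apart in this way was not counted, so the separation is a description only.

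Against the Ly6Chi population with the same MHC class II label, Ms4a7 was higher by 2.39 in Ly6Clo MHCIIhi (SE 0.24, adjusted p = 3.85e-08) and by 3.64 in Ly6Clo MHCIIlo (SE 0.27, adjusted p = 1.35e-10). Leaving out Ly6Chi MHCIIhi ctrl replicate 1 gave 2.39 for the first of these (SE 0.24, adjusted p = 4.71e-08). Across both labels, it was higher by 3.81 in Ly6Clo MHCIIhi than in Ly6Chi MHCIIlo (SE 0.26, adjusted p = 7.47e-13) and by 2.08 in Ly6Clo MHCIIlo than in Ly6Chi MHCIIhi (SE 0.23, adjusted p = 1.85e-06, and 2.03 with adjusted p = 1.74e-07 without that library). Between the Ly6Chi populations it was higher by 1.51 in MHCIIhi cells (SE 0.35, adjusted p = 0.0208), with overlapping groups. That call was kept without ctrl replicate 1 (1.55, adjusted p = 0.0113) and lost without ctrl replicate 4 (1.31, adjusted p = 0.127), which holds 47 of the 172 Ms4a7 counts of Ly6Chi MHCIIhi. It was also lost within ko (1.41, adjusted p = 0.0989) and within ctrl (1.72, adjusted p = 0.38). Ly6Clo MHCIIhi and Ly6Clo MHCIIlo were neighbours whose difference, 0.20 (SE 0.17, adjusted p = 0.398), was within their spread. These comparisons share samples and are not independent of each other.

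**Figure D1:**
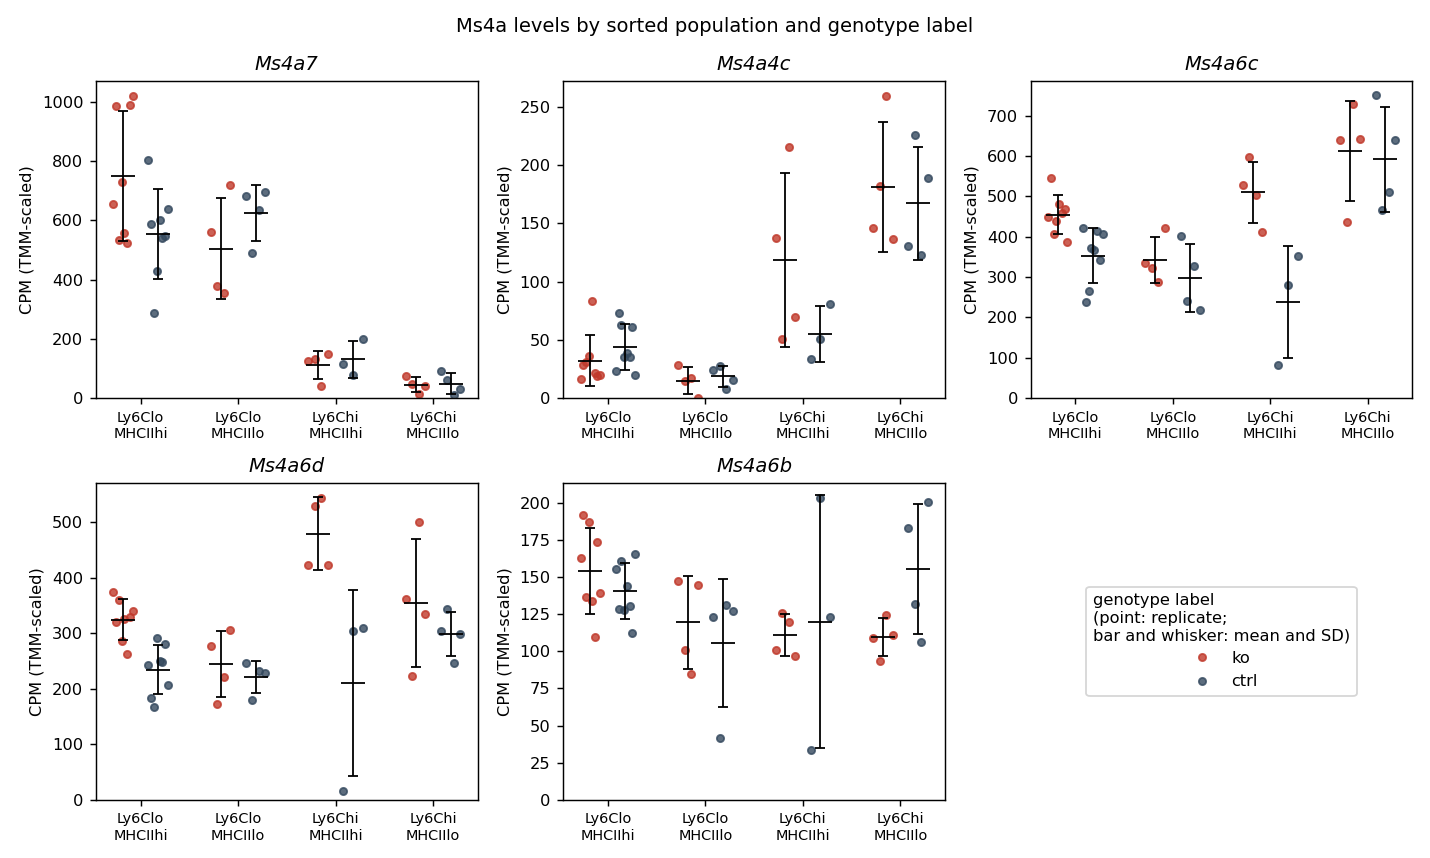
Level of each Ms4a gene in CPM, on a linear axis from 0, in each of the 4 sorted populations, with samples labelled ko left of ctrl. Points are replicates, and the bar and whiskers are the mean and SD. Ms4a7 was at 286 CPM or more in every Ly6Clo sample and at 200 CPM or less in every Ly6Chi sample, and Ms4a4c was highest in Ly6Chi MHCIIlo. The share of all genes that lay apart in this way was not counted.

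Ms4a4c, a gene known in mouse myeloid cells for its rise with type I interferon, ran the other way. Its level averaged 37.8 ± 21.0 CPM in Ly6Clo MHCIIhi (SD, n = 16), 16.7 ± 9.78 CPM in Ly6Clo MHCIIlo (SD, n = 8), 91.2 ± 64.4 CPM in Ly6Chi MHCIIhi (SD, n = 7) and 174 ± 49.1 CPM in Ly6Chi MHCIIlo (SD, n = 8). The lowest, median and highest replicates had 16.3, 33.0 and 83.7 CPM in Ly6Clo MHCIIhi and 0, 16.1 and 28.4 CPM in Ly6Clo MHCIIlo, where the replicate at 0 has a floor of 12.4 CPM (3 counts). They had 33.2, 69.9 and 216 CPM in Ly6Chi MHCIIhi and 123, 164 and 259 CPM in Ly6Chi MHCIIlo. Ly6Clo MHCIIlo lay below both Ly6Chi populations with no overlap, and Ly6Clo MHCIIhi lay below Ly6Chi MHCIIlo with none. The lowest Ly6Chi MHCIIhi value, that of ctrl replicate 1, is 2 counts and under its floor of 49.8 CPM. Likewise, ctrl replicate 3 had 50.8 CPM, which is 2 counts and under its floor of 76.2 CPM. The share of all genes that lay apart between these populations was not counted, so the separations are a description only.

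Ms4a4c fell by 3.36 in Ly6Clo MHCIIlo relative to Ly6Chi MHCIIlo (SE 0.30, adjusted p = 3.28e-09) and differed by -1.32 in Ly6Clo MHCIIhi relative to Ly6Chi MHCIIhi (SE 0.33, adjusted p = 0.00554). The second of these became -1.40 without ctrl replicate 1 (adjusted p = 0.00334) and did not pass among samples labelled ctrl alone (-0.74, adjusted p = 0.51). Against the remaining Ly6Chi population, the differences were -2.19 for Ly6Clo MHCIIhi (SE 0.22, adjusted p = 2.67e-09) and -2.48 for Ly6Clo MHCIIlo (SE 0.44, adjusted p = 0.000355, and -2.56 with adjusted p = 5.87e-05 without ctrl replicate 1). Within the Ly6Clo cells it was higher by 1.24 in MHCIIhi than in MHCIIlo (SE 0.41, adjusted p = 0.0242), a call resting on 25 counts in Ly6Clo MHCIIlo. It was lost without Ly6Clo MHCIIlo ctrl replicate 3 (adjusted p = 0.0616) or ko replicate 4 (adjusted p = 0.0637), and with a replicate block (adjusted p = 0.0704). Of the 24 fits with a replicate left out, 20 gave Ms4a4c a value, and in the others it was under the count filter. The difference of -0.89 between Ly6Chi MHCIIhi and Ly6Chi MHCIIlo did not pass (SE 0.28, adjusted p = 0.0992, and 0.111 without ctrl replicate 1). It passed without Ly6Chi MHCIIhi ko replicate 3, the highest of that population (-1.13, adjusted p = 0.0207).

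Ms4a6c, which lies beyond Ms4a4b from Ms4a4c in the cluster, was highest in Ly6Chi MHCIIlo. It averaged 404 ± 77.2 CPM in Ly6Clo MHCIIhi (SD, n = 16), 320 ± 70.6 CPM in Ly6Clo MHCIIlo (SD, n = 8), 394 ± 175 CPM in Ly6Chi MHCIIhi (SD, n = 7) and 602 ± 118 CPM in Ly6Chi MHCIIlo (SD, n = 8). Replicates had between 219 and 422 CPM in Ly6Clo MHCIIlo, all below the 436 to 753 CPM of Ly6Chi MHCIIlo, a fall of 0.85 (SE 0.15, adjusted p = 8.27e-05). The share of all genes that lay apart between these populations was not counted. Ly6Clo MHCIIhi overlapped with Ly6Chi MHCIIlo at 239 to 545 CPM and was lower by -0.56 (SE 0.11, adjusted p = 0.000118). Ms4a6c was higher in Ly6Clo MHCIIhi than in Ly6Clo MHCIIlo by 0.35 (SE 0.11, adjusted p = 0.0213). This call was lost without Ly6Clo MHCIIlo ctrl replicate 4 (0.30, adjusted p = 0.0602), within ko (adjusted p = 0.0532) and within ctrl (adjusted p = 0.371). It was also lost with a replicate block (adjusted p = 0.158) and with all 8 groups in 1 fit (adjusted p = 0.0813). Ly6Chi MHCIIhi spread between 83.0 and 597 CPM and differed from Ly6Chi MHCIIlo by -0.62 (SE 0.22, adjusted p = 0.152, and -0.44 with adjusted p = 0.152 without ctrl replicate 1). Its differences from the Ly6Clo populations did not pass either, at 0.08 for Ly6Clo MHCIIhi (adjusted p = 0.788) and -0.26 for Ly6Clo MHCIIlo (adjusted p = 0.408). They were -0.06 (adjusted p = 0.808) and -0.42 (adjusted p = 0.0621) without ctrl replicate 1. The difference between Ly6Clo MHCIIlo and Ly6Chi MHCIIhi passed within ko (-0.49, adjusted p = 0.0409) and without libraries under 100000 counts (-0.50, adjusted p = 0.0311), and was 0.21 within ctrl (adjusted p = 0.854).

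Ms4a6d averaged 279 ± 61.0 CPM in Ly6Clo MHCIIhi (SD, n = 16), 233 ± 45.0 CPM in Ly6Clo MHCIIlo (SD, n = 8), 364 ± 180 CPM in Ly6Chi MHCIIhi (SD, n = 7) and 327 ± 85.1 CPM in Ly6Chi MHCIIlo (SD, n = 8). The SD in Ly6Chi MHCIIhi came with 1 library: ctrl replicate 1 had 16.6 CPM, a single count and under its floor of 49.8 CPM, and the other 6 had 305 to 543 CPM. Ms4a6d was lower in Ly6Clo MHCIIlo than in Ly6Chi MHCIIlo by -0.42 (SE 0.16, adjusted p = 0.0369). This call was lost without Ly6Chi MHCIIlo ko replicate 3 (adjusted p = 0.0918), Ly6Clo MHCIIlo ko replicate 2 (adjusted p = 0.0805) or ko replicate 3 (adjusted p = 0.0566), within ko (adjusted p = 0.178) and within ctrl (adjusted p = 0.267). With all samples, neither Ly6Clo population differed from Ly6Chi MHCIIhi past the threshold (-0.31 for Ly6Clo MHCIIhi, SE 0.18, adjusted p = 0.267, and -0.59 for Ly6Clo MHCIIlo, SE 0.25, adjusted p = 0.0959). Without ctrl replicate 1 both passed, at -0.48 for Ly6Clo MHCIIhi (SE 0.11, adjusted p = 0.0033) and -0.79 for Ly6Clo MHCIIlo (SE 0.16, adjusted p = 0.000651). Between Ly6Chi MHCIIhi and Ly6Chi MHCIIlo the difference was 0.13 with that library (adjusted p = 0.886) and 0.33 without it (adjusted p = 0.322).

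Ms4a6b was the most even of the 5 across the populations, with averages of 147 ± 24.7 CPM in Ly6Clo MHCIIhi (SD, n = 16), 112.6 ± 35.7 CPM in Ly6Clo MHCIIlo (SD, n = 8), 115 ± 50.4 CPM in Ly6Chi MHCIIhi (SD, n = 7) and 132 ± 38.7 CPM in Ly6Chi MHCIIlo (SD, n = 8). Its samples overlapped between every pair of populations. Ly6Clo MHCIIhi was higher than Ly6Chi MHCIIhi by 0.45 (SE 0.16, adjusted p = 0.0482) and than Ly6Clo MHCIIlo by 0.39 (SE 0.14, adjusted p = 0.0426). The first call was lost without ctrl replicate 1 (0.37, adjusted p = 0.0829). It was lost under 22 of the settings and left-out replicates tried, and the second under 18.

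Counted over the 5 genes, 3 passed in Ly6Clo MHCIIhi against Ly6Chi MHCIIhi (2 higher, 1 lower), where 15.8% of all tested genes passed (8.36% higher, 7.42% lower). In Ly6Clo MHCIIlo against Ly6Chi MHCIIlo, 4 passed (1 higher, 3 lower), where 37.2% of all genes did (18.3% higher, 18.9% lower). In Ly6Clo MHCIIhi against Ly6Clo MHCIIlo, 3 passed (all higher) beside 25.5% of all genes (12.5% higher, 13% lower). In Ly6Chi MHCIIhi against Ly6Chi MHCIIlo, only Ms4a7 passed, beside 2.99% of all genes (1.32% higher, 1.66% lower). In Ly6Clo MHCIIhi against Ly6Chi MHCIIlo, 3 passed (1 higher, 2 lower) beside 42.5% (20.8% higher, 21.7% lower), and in Ly6Clo MHCIIlo against Ly6Chi MHCIIhi 2 passed (1 higher, 1 lower) beside 23.4% (11.3% higher, 12.1% lower). With 5 genes and background shares of this size, the counts themselves say little, and the sizes of the Ms4a7 and Ms4a4c differences carry the description. By smallest p, Ms4a7 ranked at place 8 of 5541 tested genes in Ly6Clo MHCIIhi against Ly6Chi MHCIIhi and at place 28 of 4336 in Ly6Clo MHCIIlo against Ly6Chi MHCIIlo.

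**Figure D2:**
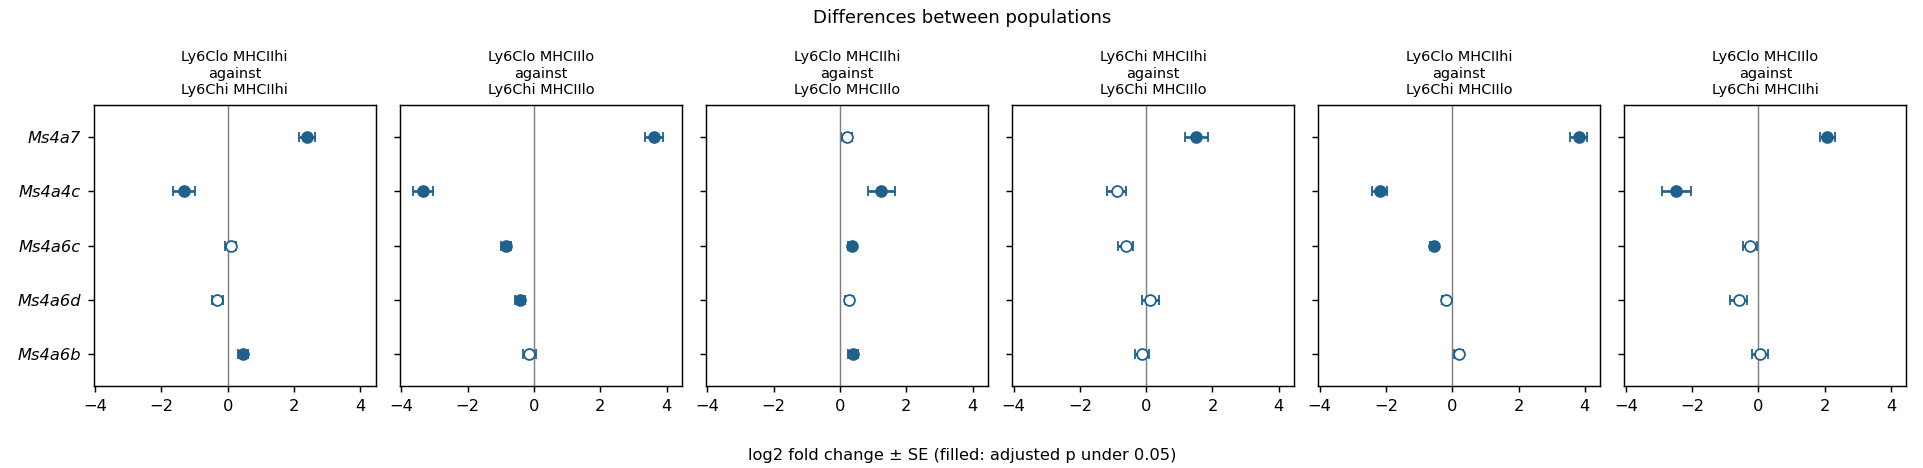
Log2 fold change of each Ms4a gene with its SE, for 6 comparisons of sorted populations, where a positive value means higher in the population named first. Filled points passed an adjusted p of 0.05. Ms4a7 lay to the right at 1.51 to 3.81 in 5 panels and Ms4a4c to the left at -0.89 to -3.36 in the same 5, while the Ms4a6 genes stayed within 0.85 of 0.

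Of the genes of other cell types, those of neutrophils moved with the MHC class II label, and those of dendritic cells were highest in Ly6Clo MHCIIhi. The 10 neutrophil genes summed to between 375 and 1831 CPM in Ly6Clo MHCIIhi and, without ctrl replicate 1, between 531 and 1985 CPM in Ly6Chi MHCIIhi, against 5661 to 30201 CPM in Ly6Clo MHCIIlo and 6006 to 19514 CPM in Ly6Chi MHCIIlo. All 10 had counts in every population. The 9 dendritic cell genes measured summed to between 118 and 405 CPM in Ly6Clo MHCIIhi and 63.9 to 229 CPM in Ly6Chi MHCIIhi, against 33.1 to 117.02 CPM in Ly6Clo MHCIIlo and 13.1 to 70.6 CPM in Ly6Chi MHCIIlo. Xcr1, Clec9a, Itgae and Siglech were at 0 in Ly6Chi MHCIIlo, Xcr1 in Ly6Clo MHCIIlo, and Itgae and Siglech in Ly6Chi MHCIIhi. The median dendritic sums were 297 CPM in Ly6Clo MHCIIhi, 79.5 CPM in Ly6Chi MHCIIhi, 65.2 CPM in Ly6Clo MHCIIlo and 32.5 CPM in Ly6Chi MHCIIlo. They thus differed between Ly6Clo and Ly6Chi cells with the MHCIIhi label too, with overlapping ranges. Genes of B and plasma cells had median sums of 146 CPM in Ly6Clo MHCIIhi and 871 CPM in Ly6Chi MHCIIhi. In Ly6Clo MHCIIlo and Ly6Chi MHCIIlo these were 18.1 and 24.8 CPM. Genes of mast cells and basophils had medians of 240 CPM in Ly6Clo MHCIIlo and 25.4 CPM in Ly6Chi MHCIIlo. Their medians were 146 and 102 CPM in Ly6Clo MHCIIhi and Ly6Chi MHCIIhi. The ranges of both lists overlapped between all populations. The part of any of these lists in the Ms4a differences between populations was not tested. Apart from Ly6Chi MHCIIhi ctrl replicate 1, at 77457 CPM, the ranges of the neutrophil sums overlapped between Ly6Clo and Ly6Chi cells of the same MHC class II label.

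Genes known for monocytes and macrophages give the setting of the opposed patterns. Of 13 monocyte genes tested in Ly6Clo MHCIIlo against Ly6Chi MHCIIlo, 0 were higher and 11 lower, with a median difference of -2.03 against 0.03 over all genes. Ly6c2 (-4.75, adjusted p = 6.19e-15) and Plac8 (-3.71, adjusted p = 8.76e-13) had the smallest p. The cells were sorted on Ly6C, so the fall of Ly6c2 was set by the gate. Of 14 macrophage genes tested there, 10 were higher and 1 lower (median 1.22), led by the complement genes C1qc (3.99, adjusted p = 3.54e-14) and C1qa (3.79, adjusted p = 8.67e-13). Ms4a7 thus moved as the macrophage list did and Ms4a4c as the monocyte list did. In Ly6Clo MHCIIhi against Ly6Chi MHCIIhi, 8 of 14 macrophage genes were higher and 1 lower (median 0.97 against 0.02 over all genes), and 10 of 12 monocyte genes were lower and 0 higher (median -1.80). Of 8 type I interferon response genes tested in Ly6Clo MHCIIlo against Ly6Chi MHCIIlo, 1 was higher and 4 were lower (median -0.97), with Ifi27l2a (-3.02, adjusted p = 1.86e-11) and Irf7 (-1.80, adjusted p = 1.37e-06) having the smallest p. In the MHCIIhi pair, 1 of 11 was higher and 4 were lower (median -0.48), and these included Ifi27l2a (-1.44, adjusted p = 2e-05), while Bst2 was higher (1.06, adjusted p = 9.32e-05).

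Likeness across the 8 group means of log2(CPM + 1) was measured over 3922 genes with at least 50 CPM in their highest group, as a description without a test. The 5 genes most like Ms4a7 were Adamdec1 (r = 0.9944), Apoe (0.9932), C1qa (0.9922), C1qc (0.9913) and Ptgs1 (0.9896). Apoe encodes a lipid carrier and the C1q genes encode parts of the first complement component. For Ms4a4c they were Sla (r = 0.9918), Arid5a (0.9903), Rpl18 (0.9887), Cish (0.9878) and Prkx (0.9854), among which Sla and Cish encode dampers of receptor signalling. For Ms4a6c they were Tyrobp (r = 0.9863), which encodes the signalling adaptor DAP12, Gpr35 (0.9732), Cox4i1 (0.9671), Rcan1 (0.9641) and Ly6i (0.9621). For Ms4a6d they were Ripk3 (r = 0.984), Noc4l (0.9736), Sarnp (0.9674), Lman2 (0.9633) and Ufc1 (0.9615). The even pattern of Ms4a6b had weaker counterparts, led by Tpgs1 (r = 0.9082), Cuta (0.865), Commd1 (0.8611), Rab14 (0.8539) and Fam174a (0.8505). Between the members themselves r was -0.8883 for Ms4a4c and Ms4a7 and 0.8826 for Ms4a6c and Ms4a6d, while Ms4a6b and Ms4a7 had 0.07573. The group means share their libraries, and those of Ly6Chi MHCIIhi ctrl include the library that stood apart.

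Loss of Ccl17 was the study's main comparison, and 0 of the 5 genes passed in any population by edgeR's quasi-likelihood test or by DESeq2. The background was 0% of tested genes in Ly6Clo MHCIIhi, 0.0314% in Ly6Clo MHCIIlo, 0% in Ly6Chi MHCIIhi and 0.0756% in Ly6Chi MHCIIlo. At an unadjusted p under 0.05, 296 of 5660 genes differed in Ly6Clo MHCIIhi, and 3 of them were members (Ms4a6c, Ms4a6d and Ms4a7). The members at that level numbered 0 in Ly6Clo MHCIIlo, beside 139 of 3182 genes, and 2 in Ly6Chi MHCIIhi (Ms4a6c and Ms4a6d), beside 246 of 3553 genes. In Ly6Chi MHCIIlo 1 member was at that level (Ms4a6b), beside 444 of 3966 genes.

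The smallest adjusted p among the members was 0.433, for Ms4a6b in Ly6Chi MHCIIlo, and the smallest unadjusted p was that of Ms4a6d in Ly6Clo MHCIIhi. The lowest, median and highest Ms4a6d replicates there had 263, 327 and 375 CPM with the ko label and 168, 246 and 291 CPM with the ctrl label. All 8 samples labelled ko were above the ctrl mean, but the groups overlapped. The means were 325 ± 36.4 CPM in ko and 234 ± 44.1 CPM in ctrl (SD, n = 8 each), a difference of 0.45 (SE 0.11, adjusted p = 0.887). Its unadjusted rank was 2 of 5660 genes, and it lay between 0.41 and 0.50 under all 25 alternatives and left-out replicates, with adjusted p between 0.215 and 1. Because the gene was singled out for its place among all genes, that rank is a description.

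Ms4a6c averaged 454 ± 48.3 CPM in ko and 353 ± 68.1 CPM in ctrl in the same population (SD, n = 8 each), with 8 of 8 ko samples above the ctrl mean (0.32, SE 0.11, adjusted p = 0.887). Ms4a7 averaged 750 ± 218 CPM in ko and 554 ± 151 CPM in ctrl (SD, n = 8 each), with 6 of 8 above (0.44, SE 0.17, adjusted p = 0.887). Ms4a6b had 154 ± 29.1 CPM in ko and 141 ± 18.8 CPM in ctrl (SD, n = 8 each; 0.17, adjusted p = 0.972), and Ms4a4c had 32.0 ± 22.0 CPM in ko and 43.6 ± 19.7 CPM in ctrl (SD, n = 8 each; -0.12, adjusted p = 1). The red cell genes moved with genotype here, with sums of 411 to 12494 CPM in ko (median 1375) and 29.1 to 1485 CPM in ctrl (median 188). The macrophage list summed to 38365 to 55200 CPM in ko (median 45853) and 25909 to 53174 CPM in ctrl (median 41474). The red cell sums were also higher in ko in Ly6Clo MHCIIlo, at 1628 to 6654 CPM in ko and 61.0 to 1344 CPM in ctrl, and overlapped in Ly6Chi MHCIIlo, at 55.3 to 2118 CPM in ko and 39.3 to 926 CPM in ctrl. In Ly6Clo MHCIIhi, 8 genes of B and plasma cells summed to 12.9 to 287 CPM in ko (median 38.2) and 10.4 to 1101 CPM in ctrl (median 352). There, 8 genes of mast cells and basophils summed to 0 to 1570 CPM in ko (median 329) and 10.4 to 701 CPM in ctrl (median 69.7), and the ranges of both lists overlapped. The part of any of these lists in the Ms4a values was not tested.

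In Ly6Chi MHCIIhi, Ms4a6d had 423, 529, 543 and 423 CPM in the ko samples, against 16.6, 305 and 310 CPM in the ctrl samples. Ms4a6c had 528, 597, 503 and 412 CPM in ko, against 83.0, 280 and 353 CPM in ctrl. Both sets were apart without overlap. The share of all genes that lay apart between these few samples was not counted, so the separation is a description only. Neither difference passed, at 1.03 for Ms4a6d (SE 0.47, adjusted p = 0.707) and 0.92 for Ms4a6c (SE 0.35, adjusted p = 0.707). Without ctrl replicate 1, which leaves 2 ctrl libraries, they were 0.58 (SE 0.24) and 0.59 (SE 0.24), both with adjusted p = 0.936. The 13 monocyte genes also lay apart there, with sums of 8498 to 10700 CPM in ko, against 3553, 6989 and 8337 CPM in ctrl, and their part in these values was not tested. The ctrl values of that population rest on 86 counts of Ms4a6d and 99 of Ms4a6c. Ms4a4c, Ms4a7 and Ms4a6b overlapped between genotypes there (0.72, -0.46 and -0.15, with adjusted p = 0.795, 0.826 and 0.986). Without ctrl replicate 1 these differences were 0.51, -0.55 and -0.40 (adjusted p = 0.977, 0.97 and 0.97).

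In the MHCIIlo populations the genotypes overlapped for every member. Ms4a7 averaged 504 ± 170 CPM in ko and 626 ± 94.9 CPM in ctrl in Ly6Clo MHCIIlo (SD, n = 4 each; -0.32, adjusted p = 0.999), the opposite sign to Ly6Clo MHCIIhi. Ms4a6b averaged 110 ± 12.7 CPM in ko and 155 ± 44.0 CPM in ctrl in Ly6Chi MHCIIlo (SD, n = 4 each; -0.50, SE 0.23, adjusted p = 0.433). The other differences there lay between -0.11 and 0.25. Ms4a4c was under the count filter in Ly6Clo MHCIIlo, where it had 5, 3, 3 and 0 counts in ko and 5, 4, 2 and 3 counts in ctrl. A two-sided exact permutation test of its mean log2(CPM + 1) gave a difference of -0.90 with p = 0.657 over 70 arrangements. With a pseudocount of 0.5 or 5 the difference was -1.14 or -0.44, with the same exact p. Whether the genotype difference itself differed between populations was tested as an interaction, in which 0.0664% of 6022 genes and 0 members passed. The adjusted p was 0.961 for Ms4a4c, 0.856 for Ms4a6b, 0.753 for Ms4a6c, 0.851 for Ms4a6d and 0.874 for Ms4a7.

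**Figure D3:**
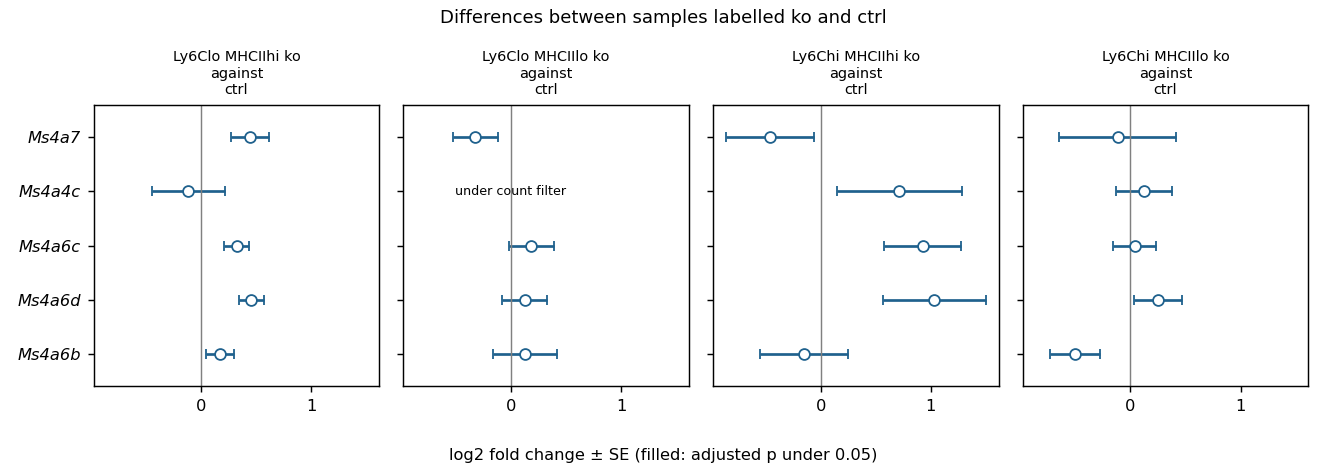
Log2 fold change of samples labelled ko over samples labelled ctrl with its SE, for each Ms4a gene in each population. A filled point would mark an adjusted p under 0.05, and all points are open. The longest whisker is that of Ms4a4c in Ly6Chi MHCIIhi (SE 0.56), and the shortest are those of Ms4a6c and Ms4a6d in Ly6Clo MHCIIhi (SE 0.11 each).

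The library barcodes were not balanced over genotype. In Ly6Clo MHCIIlo, Ly6Chi MHCIIhi and Ly6Chi MHCIIlo, every ko library had a barcode with at least 3 G or C among its bases and every ctrl library one with fewer. There the kind of barcode is confounded with genotype, and their effects cannot be told apart. Among the Ly6Clo MHCIIhi samples, 5 replicates had a library of each kind. Between these libraries of the same replicate, 1.8% of 4945 tested genes passed and 0 members, with differences from -0.14 for Ms4a6c (adjusted p = 0.7376) to 0.11 for Ms4a6b (adjusted p = 0.9145). Over the 8 replicates with a second library, the higher library exceeded the lower by at most 1.30 times for Ms4a7, 1.1795 times for Ms4a6d, 1.35 times for Ms4a6c, 1.55 times for Ms4a6b and 2.17 times for Ms4a4c, whose libraries held 4 to 40 counts each. Over all genes such pairs differed by more than sampling noise, with a chi-square per degree of freedom between 1.736 and 2.53.

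**Figure D4:**
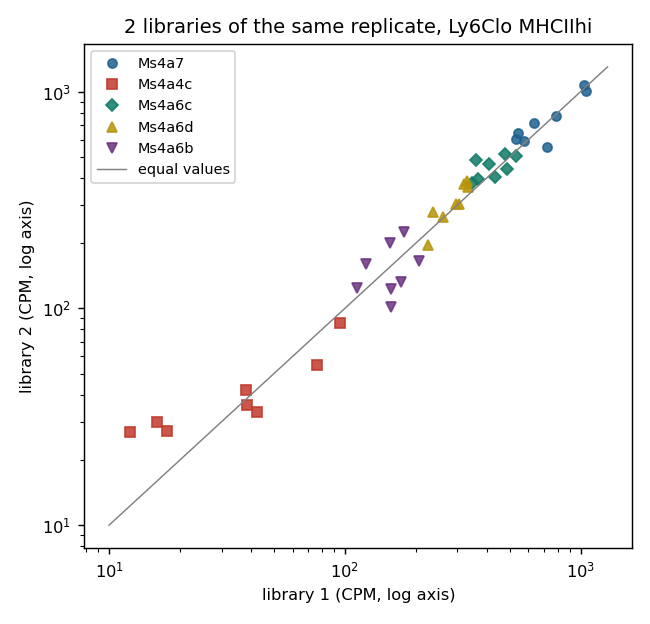
CPM of each Ms4a gene in library 1 and library 2 of the 8 Ly6Clo MHCIIhi replicates that had both, on log axes, with a line of equal values. Points lie along the line, with the widest scatter for Ms4a4c, where the libraries of ko replicate 7 had 12.3 and 26.8 CPM.

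Within Ly6Clo MHCIIhi, the 16 replicates allowed the 5 genes to be compared across samples. Of the 10 pairs of members, 1 passed by Pearson's r. Ms4a6c and Ms4a6d had r = 0.7171 (permutation p = 0.00195, adjusted p = 0.0195) and rho = 0.5176 (permutation p = 0.04188, adjusted p = 0.1585). Without the 2 samples farthest from the Ms4a6c median, r was 0.3004, though leaving them out also narrows the range. Within ko r was -0.2475 and within ctrl 0.6716 (n = 8 each). Both genes averaged higher in ko, so r over all 16 samples mixes the genotypes, and the relation did not hold within ko. Ms4a4c and Ms4a7 had r = -0.5525 (permutation p = 0.02497, adjusted p = 0.0683) and rho = -0.5059 (permutation p = 0.04754, adjusted p = 0.1585), with -0.4045 within ko and -0.5333 within ctrl.

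The members were also compared with the summed levels of 4 gene lists, a choice made after values had been seen, with p adjusted over 20 relations. Ms4a7 followed the macrophage list, with r = 0.9206 (permutation p = 1e-05, the smallest the resamples can give, adjusted p = 0.0002) and rho = 0.8971 (permutation p = 2e-05, adjusted p = 0.0004). Without the 2 farthest samples r was 0.8323, and it was 0.9252 within ko and 0.9281 within ctrl. Against the same list Ms4a4c had r = -0.6631 (permutation p = 0.00335, adjusted p = 0.02233) and rho = -0.6735 (permutation p = 0.00527, adjusted p = 0.03315), and -0.618 without the 2 farthest samples. With the dendritic cell list Ms4a4c had r = 0.7324 (permutation p = 0.00153, adjusted p = 0.0153) and rho = 0.7294 (permutation p = 0.00198, adjusted p = 0.0198), with 0.7029 without the 2 farthest samples, 0.7254 within ko and 0.7754 within ctrl. Ms4a7 had the opposite sign with that list, r = -0.6201 (permutation p = 0.00969, adjusted p = 0.03543) and rho = -0.6647 (permutation p = 0.00663, adjusted p = 0.03315).

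With the monocyte list Ms4a7 had r = -0.6561 (permutation p = 0.0048, adjusted p = 0.024) and rho = -0.6441 (permutation p = 0.00858, adjusted p = 0.03432). Ms4a4c had r = 0.6181 with that list (permutation p = 0.01063, adjusted p = 0.03543) but rho = 0.4147 (permutation p = 0.112, adjusted p = 0.2036), and r was 0.4297 without the 2 farthest samples, 0.5229 within ko and 0.7516 within ctrl. With the type I interferon response list Ms4a4c had r = 0.6017 (permutation p = 0.01317, adjusted p = 0.03763) and rho = 0.4588 (permutation p = 0.07682, adjusted p = 0.1707). Without the 2 farthest samples r was 0.2595. Leaving them out also narrows the range of the list, so whether the relation rests on them cannot be told. Within genotypes r was 0.8884 in ko and 0.5958 in ctrl, and it was 0.7097 over the 14 samples left without libraries under 100000 counts. Ms4a6b, Ms4a6c and Ms4a6d had no relation with any of the 4 lists that passed after adjustment. The list sums and the members share a library and its scaling, and none of the lists holds a member.

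**Figure D5:**
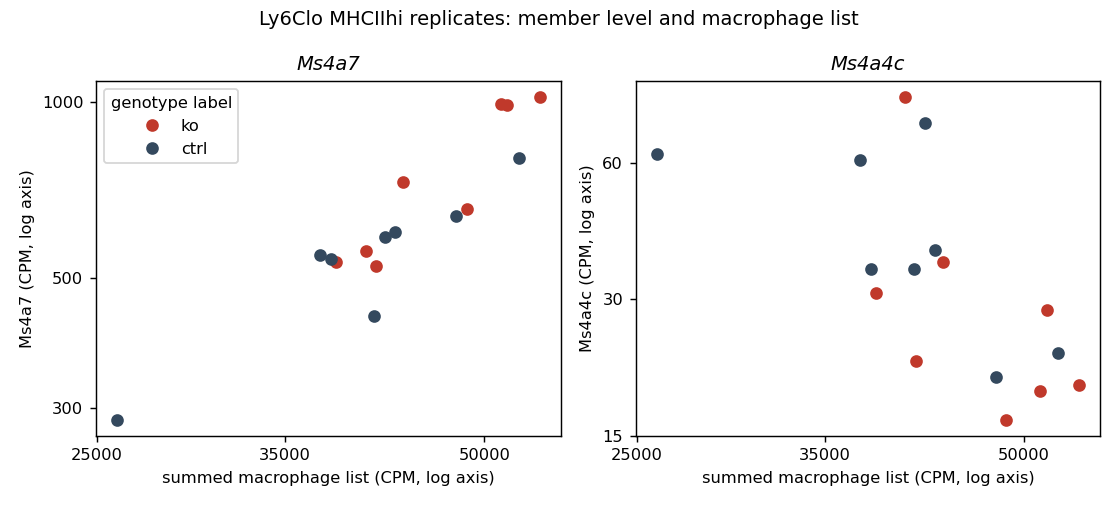
Level of Ms4a7 and Ms4a4c in CPM against the summed level of the macrophage list in CPM, both on log axes, in the 16 Ly6Clo MHCIIhi replicates labelled ko or ctrl. Ms4a7 rose along the axis in both genotypes (r = 0.9252 in ko and 0.9281 in ctrl), and Ms4a4c declined (r = -0.5725 in ko and -0.6769 in ctrl).

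Other members of the family were sparser. Ms4a8a had 367 counts in all, with 18.7 ± 22.2 CPM in Ly6Clo MHCIIhi (SD, n = 16) and 8.12 ± 2.45 CPM in Ly6Clo MHCIIlo (SD, n = 8) against 56.6 ± 39.0 CPM in Ly6Chi MHCIIhi (SD, n = 7) and 73.8 ± 22.0 CPM in Ly6Chi MHCIIlo (SD, n = 8). Its difference between Ly6Clo and Ly6Chi cells was -1.84 in the MHCIIhi pair (SE 0.46, adjusted p = 0.00627) and -3.06 in the MHCIIlo pair (SE 0.30, adjusted p = 1.58e-08), in the direction of Ms4a4c. Ms4a14, the direct neighbour of Ms4a7, had 163 counts, of which 160 were in Ly6Clo cells (123 in MHCIIhi, 37 in MHCIIlo) and 3 in Ly6Chi cells, and it was under the filter in these comparisons. Ms4a4a, whose product partners the receptor Dectin-1 in mouse macrophages, had 34.8 ± 15.7 and 28.8 ± 15.8 CPM in Ly6Clo MHCIIhi and Ly6Clo MHCIIlo against 49.1 ± 16.8 and 54.5 ± 37.2 CPM in Ly6Chi MHCIIhi and Ly6Chi MHCIIlo (SD, n = 16, 8, 7 and 8), and no population comparison of it passed (adjusted p 0.0812 to 0.997). Ms4a4b had 65 counts, Ms4a3 33, Ms4a1 17 and Ms4a2 12, and each was under the filter there.

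Tmem176a and Tmem176b, relatives of the family that are encoded on chromosome 6, were highest in Ly6Clo MHCIIhi. Their annotated spans overlap on opposite strands, and the strand setting of the counting is not stated, so their reads may not be told apart. Tmem176a averaged 450 ± 124 CPM in Ly6Clo MHCIIhi (SD, n = 16), 139 ± 69.0 CPM in Ly6Clo MHCIIlo, 191 ± 64.9 CPM in Ly6Chi MHCIIhi and 142 ± 35.3 CPM in Ly6Chi MHCIIlo (SD, n = 8, 7 and 8). It was higher in Ly6Clo MHCIIhi than in Ly6Clo MHCIIlo by 1.70 (SE 0.21, adjusted p = 6.25e-07) and than in Ly6Chi MHCIIhi by 1.25 (SE 0.20, adjusted p = 4.23e-05). Tmem176b differed by 1.32 (SE 0.17, adjusted p = 6.8e-07) and 1.04 (SE 0.18, adjusted p = 0.000119) in the same pairs. Between Ly6Clo MHCIIlo and Ly6Chi MHCIIlo, where Ms4a7 differed by 3.64, Tmem176a differed by 0.04 (SE 0.24, adjusted p = 0.911).

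A further 8 measured genes encode known partners of MS4A proteins, parts of their membrane complexes, or NLRP3, described above as held back with MS4A6D. Of these, 2 were higher and 3 lower in Ly6Clo MHCIIlo against Ly6Chi MHCIIlo (median -0.25 against 0.03 over all genes). In Ly6Clo MHCIIhi against Ly6Chi MHCIIhi, 1 was higher and 2 lower (median -0.28). Cd63, which encodes a tetraspanin of endosomes, rose by 2.92 (SE 0.18, adjusted p = 2.54e-12) and 1.88 (SE 0.21, adjusted p = 3.45e-07) in these comparisons. Itgam, which encodes CD11b, differed by -0.31 (SE 0.11, adjusted p = 0.0337) and -0.57 (SE 0.12, adjusted p = 0.00147). Cd9, another tetraspanin gene, was higher by 0.62 in the MHCIIlo pair (SE 0.16, adjusted p = 0.00354) and lower by -0.69 in the MHCIIhi pair (SE 0.15, adjusted p = 0.00206). Tyrobp and Nlrp3 fell in the MHCIIlo pair, with differences of -0.51 (SE 0.12, adjusted p = 0.0011) and -0.69 (SE 0.19, adjusted p = 0.00464), and did not pass in the MHCIIhi pair. Clec7a, which encodes Dectin-1, Fcer1g, which encodes a signalling chain of Fc receptors, and Tnfrsf18 passed in neither pair. Between ko and ctrl, 0 of the 8 passed in any population by edgeR. At an unadjusted p under 0.05 there were 2 in Ly6Clo MHCIIhi (Fcer1g and Cd63), where 296 of 5660 genes were at that level, and 2 in Ly6Chi MHCIIlo (Cd9 and Tnfrsf18), where 444 of 3966 were.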

How the data were processed

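The members, gene lists and tests were chosen with earlier results of these data known. The authors deposited a table of raw counts, with a row for each gene symbol and a column for each library. GRCm38, R 3.4.4 and DESeq2 1.18.1 are named in the submitters' processing notes, but the sources used here name no aligner, counter or strand setting and do not say whether molecules or reads were counted, so floors (3 counts) cover counting error only. A row named z, a symbol that GENCODE M21 does not hold (127 counts, 0.000967%), was kept, and 64.6% of all symbols matched that annotation.

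Libraries of the same replicate were summed, and libraries under 0.1 of the median total (28006.25 counts) were left out, which removed 1 of 48. Levels are CPM on TMM-scaled library sizes over all 8 groups (edgeR 4.0.16, R 4.3.3). Differences were tested with edgeR's quasi-likelihood F test after filterByExpr (minimum count 10, minimum total 15), with genotype as a term between populations. Each SE is the absolute log2 difference divided by the square root of F, and was not fitted directly. Every adjusted p is from this test, Benjamini-Hochberg over all genes tested, with a threshold of 0.05, unless a permutation test is named. On simulated counts the test was checked for 2 comparisons. Correlations used log2(CPM + 1) and 100000 permutations (scipy 1.17.1).

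The genes named are the 5 members, other Ms4a rows and Tmem176a and Tmem176b with at least 10 counts, and gate markers. Named besides are measured partner genes with Nlrp3, the 5 genes most like each member, and 2 genes of a list with the smallest p. Equal replicate numbers were not taken to pair the samples, because in no comparison did every pair's deviations correlate above 0.1. That rule cannot exclude that equal numbers mark the same animal. Every r was above 0 in Ly6Chi MHCIIhi against Ly6Chi MHCIIlo (0.0462 to 0.225) and in Ly6Clo MHCIIlo against Ly6Chi MHCIIlo (0.00854 to 0.259). The same held in Ly6Clo MHCIIlo against Ly6Chi MHCIIhi (0.0369 to 0.0985), and every other comparison had some r below 0. The alternatives tried were the Wald test of DESeq2 1.42.0, its size factors in place of TMM, no count filter, all libraries, library 1 only, no libraries under 100000 counts, barcode class as a covariate, a replicate block, all 8 groups in 1 fit, each genotype alone, other pseudocounts, and leaving out each replicate.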

Additional observations from a re-analysis of the deposited data

Results flagged for a closer look

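Within groups of 4 to 10 samples, 35 combinations of a member and a group were searched for a replicate far from the others, and 2 were found, where chance gives about 1 in 20. Ms4a4c had 83.75 CPM in Ly6Clo MHCIIhi ko replicate 5, and the next replicate of that group had 36.24 CPM. Its libraries taken singly had 95.3 and 85.8 CPM, scaled over the libraries of that population. Ms4a6b had 41.3 CPM in Ly6Clo MHCIIlo ctrl replicate 2, which is 6 counts, and the next replicate had 123 CPM. Leaving this replicate out moved the Ms4a6b difference between Ly6Clo MHCIIhi and Ly6Clo MHCIIlo to 0.30 (adjusted p = 0.0855 by edgeR), against 0.39 with it (adjusted p = 0.0426). Whether either value comes from the cells or from the library was not tested.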

How the results depend on the processing

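The higher Ms4a7 of Ly6Clo over Ly6Chi cells passed under every alternative that gave a value in all 4 such pairs, with lowest and highest values of 1.89 and 2.74 for the MHCIIhi pair, 3.44 and 3.84 for the MHCIIlo pair, 3.55 and 4.10 for Ly6Clo MHCIIhi against Ly6Chi MHCIIlo, and 1.94 and 2.22 for Ly6Clo MHCIIlo against Ly6Chi MHCIIhi. The lower Ms4a4c did so in 3 of the 4, the exception being the MHCIIhi pair among samples labelled ctrl. No member passed between genotypes under any alternative. The number of members past the threshold changed more in other comparisons, and the causes were not tested. In Ly6Chi MHCIIhi against Ly6Chi MHCIIlo it was 1, became 2 with no count filter and with all 8 groups in 1 fit, 0 within ko and 0 within ctrl, and ran between 0 and 2 with a replicate left out. In Ly6Clo MHCIIhi against Ly6Clo MHCIIlo it was 3 and became 1 with all 8 groups in 1 fit and 0 within either genotype. Within each genotype Ms4a4c was under the count filter and so could not pass. In Ly6Clo MHCIIhi against Ly6Chi MHCIIhi 3 became 1 within ctrl. In Ly6Clo MHCIIlo against Ly6Chi MHCIIhi 2 became 4 without libraries under 100000 counts, 4 within ko and 1 within ctrl, where Ms4a4c was under the count filter. Whether equal replicate numbers pair the samples is not known. With a replicate block the count was 2 in Ly6Chi MHCIIhi against Ly6Chi MHCIIlo, where Ms4a4c passed (-0.87, adjusted p = 0.0476 by edgeR). It was 0 in Ly6Clo MHCIIhi against Ly6Clo MHCIIlo and changed by no more than 1.5 times elsewhere. The member pairs that correlated were 1, 3 without libraries under 100000 counts, 0 within ko and 1 within ctrl, where Ms4a4c with Ms4a6c passed (r = -0.8645, permutation test, adjusted p = 0.03) and Ms4a6c with Ms4a6d did not (r = 0.6716, adjusted p = 0.329).

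The differences whose sign turned passed neither with all samples nor in the setting that turned them, but 3 of them passed in another: Ms4a6b in Ly6Clo MHCIIhi against Ly6Chi MHCIIlo within ko (0.56, adjusted p = 0.0134), Ms4a6c in Ly6Clo MHCIIlo against Ly6Chi MHCIIhi within ko (-0.49) and without libraries under 100000 counts (-0.50), and Ms4a6d in Ly6Clo MHCIIhi against Ly6Chi MHCIIhi within ko (-0.50, adjusted p = 0.0063), by DESeq2 (-0.35, adjusted p = 0.0219), without libraries under 100000 counts (-0.48) and without ctrl replicate 1 (-0.48). Between populations these were Ms4a6b in Ly6Chi MHCIIhi against Ly6Chi MHCIIlo (0.0293 within ko), Ly6Clo MHCIIhi against Ly6Chi MHCIIlo (-0.11 within ctrl), Ly6Clo MHCIIlo against Ly6Chi MHCIIhi (-0.13 within ctrl, -0.0412 to 0.14 with a replicate left out) and Ly6Clo MHCIIlo against Ly6Chi MHCIIlo (0.21 within ko). Ms4a6c turned in Ly6Clo MHCIIhi against Ly6Chi MHCIIhi (-0.12 within ko, -0.11 without libraries under 100000 counts, -0.0604 to 0.16 with a replicate left out) and Ly6Clo MHCIIlo against Ly6Chi MHCIIhi (0.21 within ctrl). Ms4a6d turned in Ly6Chi MHCIIhi against Ly6Chi MHCIIlo (-0.33 within ctrl) and Ly6Clo MHCIIhi against Ly6Chi MHCIIhi (0.0865 within ctrl), and Ms4a7 in Ly6Clo MHCIIhi against Ly6Clo MHCIIlo (-0.17 within ctrl). Between genotypes, leaving out a replicate gave -0.0901 to 0.30 for Ms4a4c in Ly6Chi MHCIIlo, -0.60 to 0.0689 for Ms4a4c in Ly6Clo MHCIIhi, -0.40 to 0.17 for Ms4a6b in Ly6Chi MHCIIhi (0.0264 with no count filter), -0.0784 to 0.25 for Ms4a6b in Ly6Clo MHCIIlo, -0.0437 to 0.18 for Ms4a6c in Ly6Chi MHCIIlo, -0.0087 to 0.26 for Ms4a6d in Ly6Clo MHCIIlo, -0.63 to 0.0378 for Ms4a7 in Ly6Chi MHCIIhi and -0.49 to 0.47 for Ms4a7 in Ly6Chi MHCIIlo. Among correlations, where only that of Ms4a6c with Ms4a6d had passed, r became 0.2438 for Ms4a4c with Ms4a6c and -0.2475 for Ms4a6c with Ms4a6d within ko, -0.5596 for Ms4a6b with Ms4a6d and -0.01672 for Ms4a6b with Ms4a7 within ctrl, and -0.05597 for Ms4a6b with Ms4a6d without libraries under 100000 counts. Depth limits Ms4a4c in Ly6Clo MHCIIlo (25 counts over 8 samples) and all members in the Ly6Chi MHCIIhi samples labelled ctrl (23 to 99 counts each).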
